A study of Mus musculus with 16 samples.

Results

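The genes described here are 10 genes of the unfolded protein response and the integrated stress response: Atf4, Ddit3, Hspa5, Xbp1, Trib3, Herpud1, Dnajb9, Sdf2l1, Pdia4 and Creld2. They were chosen by symbol, and each was read from its probe set of highest mean signal. Of the 10 genes, 9 had a named probe set among the 19505 genes tested. The RNA level of Pdia4, a disulfide isomerase of the endoplasmic reticulum (ER), was therefore not read, and only its promoter window is described. Ddit3 had a second probe set with lower signal.

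Clariom S arrays were used to measure RNA of cells sorted from the olfactory mucosa, taken from mice of the S100a5-tauGFP line. In these mice GFP is tied to S100a5, a calcium-binding protein gene of olfactory sensory neurons that is known to rise with neuronal activity. The 24 mice, of both sexes and 7 to 12 weeks old, were kept singly for 40 h in chambers fed with clean air at 3.1 L/min. From 26 h on they were given the odorant octanol, or filtered air as the vehicle, in bouts of 10 s at intervals of 20 min. Cells were sorted into GFP+ and GFP- fractions, and each array holds 50 to 100 ng of total RNA pooled from 3 mice. This gave 4 groups of 4 arrays, a GFP+ and a GFP- group for each exposure, and all mice carry the reporter. GFP- is defined by the absence of reporter signal only, so this fraction held neurons and other cells. Values are log2 signals, array medians ran from 7.42 to 7.70, and a level of 6.32, set from 319 vomeronasal receptor genes, was taken as background. All 9 measured genes were above it on 4 of 4 arrays in every group.

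The unfolded protein response is the set of signals that a cell starts when misfolded proteins collect in the ER. The sensor IRE1 (Ern1) splices the Xbp1 mRNA, so that an active transcription factor is made. The sensor PERK (Eif2ak3) phosphorylates the translation factor eIF2alpha, which slows most protein synthesis but lets the Atf4 mRNA be translated. The sensor ATF6 is cut in the Golgi to release a transcription factor. In olfactory sensory neurons the PERK branch is known for its use by newly made odorant receptors, which through it raise the translation of Atf5. Splicing, phosphorylation and translation are not read by these arrays, which give the RNA level of each gene only.

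Several of these genes hold, just before their start, the DNA elements through which ER stress is known to act on promoters. RefSeq windows of 300 bases (assembly GRCm38.p6, 250 bases before to 50 after the start) matched 10 of 10 genes by symbol. The ER stress response element (ERSE), CCAAT and CCACG 9 bases apart, was searched on both strands. It was found in Hspa5, where it begins 65 bases before the start, and on the opposite strand in Creld2, 126 bases before the start, and in 0.119% of 32851 such promoters. ERSE-II, ATTGG and CCACG 1 base apart, lay 52 bases before the start of Herpud1 and in 0.0365% of promoters. The XBP1-type element TGACGTGG was in 0 of 10 of these windows and in 0.676% of promoters. The amino acid response element bound by ATF4, searched as TGATG and AA 1 base apart, was in Herpud1 (112 bases before the start) and Trib3 (14 bases after it), and in 3.97% of promoters. The 150 bases before the start are shown for the genes with ERSE or ERSE-II. They are also shown for Dnajb9 and Xbp1, the 2 genes that differed between fractions after both exposures on the deposited scale. Capitals mark CCAAT or CCACG on either strand (ATTGG and CGTGG when read on the opposite strand), and sequences run 5′ to 3′ on the strand of the gene.
Hspa5: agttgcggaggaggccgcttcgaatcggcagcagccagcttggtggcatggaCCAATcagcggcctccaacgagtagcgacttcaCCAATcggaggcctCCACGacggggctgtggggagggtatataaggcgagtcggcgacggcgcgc
Creld2: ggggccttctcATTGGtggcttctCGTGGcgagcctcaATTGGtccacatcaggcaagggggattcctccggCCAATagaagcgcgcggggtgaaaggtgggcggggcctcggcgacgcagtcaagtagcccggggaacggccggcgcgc
Herpud1: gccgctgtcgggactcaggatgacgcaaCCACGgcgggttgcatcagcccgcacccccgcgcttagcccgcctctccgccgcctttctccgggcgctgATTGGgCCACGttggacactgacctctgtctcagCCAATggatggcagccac
Dnajb9: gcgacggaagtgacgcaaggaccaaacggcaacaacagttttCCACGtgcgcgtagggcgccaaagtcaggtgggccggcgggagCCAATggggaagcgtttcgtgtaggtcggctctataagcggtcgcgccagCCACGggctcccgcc
Xbp1: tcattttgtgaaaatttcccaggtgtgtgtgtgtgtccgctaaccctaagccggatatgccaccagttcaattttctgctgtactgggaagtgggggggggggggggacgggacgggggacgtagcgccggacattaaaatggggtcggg
The windows are chr2:34771940-34772089 (+) for Hspa5, chr15:88819496-88819645 (+) for Creld2, chr8:94386279-94386428 (+) for Herpud1, chr12:44210069-44210218 (-) for Dnajb9 and chr11:5520491-5520640 (+) for Xbp1. The Xbp1 window held 0 copies of CCAAT and 0 of CCACG, and the Dnajb9 window held 1 and 2. In the windows not shown these counts were 0 and 0 for Trib3, 2 and 1 for Atf4 and 1 and 0 for Ddit3. They were 2 and 2 for Sdf2l1 and 2 and 0 for Pdia4. A link between these counts and the fraction differences was not tested. Over all promoters, 24.5% held CCAAT and 20.0% held CCACG in the same 150 bases. A match is a description of letters, and binding was not measured.

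Between the sorted fractions, 2 of these genes differed after both exposures, in opposite directions. Xbp1 was lower and Dnajb9 higher in GFP+ than in GFP- cells, by 1.41- to 1.48-fold and by 1.24- to 1.25-fold. Trib3 was higher in GFP+ cells after vehicle, by 1.45-fold. The other 6 (Atf4, Ddit3, Hspa5, Herpud1, Sdf2l1 and Creld2) did not pass the test in either exposure on the deposited scale, though each of them passed in at least 1 exposure under a centring given below. Differences were tested with limma, with the pool of 3 mice as a block and p-values adjusted by the Benjamini-Hochberg method over 19505 genes (threshold 0.05). After vehicle, 2 of 9 genes were called higher and 1 was called lower, against 14.7% and 13.5% of all genes (28.2% in either direction). After octanol, 1 was higher and 1 lower, against 16.7% and 13.2% (29.9% in either direction). These shares are near those of all genes, and the median difference of the 9 genes was 0.03 after vehicle and 0.07 after octanol, where the median of all genes was 0.13 and 0.14.

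The number of differing genes and their sign depended on how arrays were scaled, so values under the centrings are given for each of the 9 genes. Centring each array on its median moved the median difference of all genes to 0.46 after vehicle and 0.41 after octanol. Centring on the median of 1091 odorant receptor genes moved it to -0.17 and -0.36, and quantile normalization put it at 0.145 and 0.14. The share of higher genes among all called was, in that order, 86.5%, 12.6% and 65.0% after vehicle, against 52.2% as deposited. After octanol it was 84.9%, 5.78% and 63.4%, against 55.9%.

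Xbp1, the transcription factor made active by IRE1, had the largest difference of the 9 genes on the deposited scale. After vehicle its signal was 12.94, 12.61, 12.65 and 12.53 log2 in GFP+ cells of pools 1 to 4 and 13.33, 13.10, 13.13 and 13.41 in their GFP- cells. After octanol it was 12.52, 12.64, 12.82 and 12.96 in GFP+ cells and 13.22, 12.86, 13.38 and 13.46 in GFP- cells. All vehicle GFP+ values lay below all vehicle GFP- values, while the lowest octanol GFP- array (12.86) lay below the highest octanol GFP+ array (12.96). The difference was -0.56 ± 0.12 log2 (SE, n = 4 pools) after vehicle, with adjusted p = 0.00555 in limma. It was -0.50 ± 0.12 after octanol, with adjusted p = 0.0105 in limma. GFP+ was the lower fraction in 8 of 8 pools, by -0.88 to -0.23. The sign was negative under each scaling tried. The call was lost with arrays centred on their median (-0.23, adjusted p = 0.108 after vehicle, and -0.22, adjusted p = 0.117 after octanol, limma). Under that centring Trib3 (0.87), Sdf2l1 (0.70) and Dnajb9 (0.655) had larger vehicle differences than Xbp1. After octanol it was also lost without octanol pool 1 (-0.43, adjusted p = 0.0519, limma).

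Atf4, the transcription factor translated when eIF2alpha is phosphorylated, was lower in the GFP+ fraction of 8 of 8 pools, by -0.51 to -0.07, but passed in neither exposure on the deposited scale. In vehicle GFP+ cells it was 14.65, 14.62, 14.47 and 14.65 log2 and in vehicle GFP- cells 14.82, 14.71, 14.79 and 14.72. In octanol GFP+ cells it was 14.60, 14.37, 14.66 and 14.61 and in octanol GFP- cells 14.74, 14.88, 14.89 and 14.72. The groups did not overlap in either exposure, and the spread was small, with SDs of 0.05 to 0.13. The difference was -0.16 ± 0.10 (SE) after vehicle and -0.25 ± 0.10 after octanol, with adjusted p = 0.261 and 0.0953 in limma. The sign turned with arrays centred on their median (0.17 after vehicle and 0.025 after octanol, neither called). Centred on receptors, Atf4 was called lower in both exposures (-0.46 and -0.745, adjusted p = 0.0119 and 4.6e-04, limma). The octanol difference also passed with a trended, robust variance (adjusted p = 0.0194) and with the pool as a random block (0.0406) in limma.

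Ddit3, which encodes CHOP, the factor that links lasting stress to cell death, did not pass the test between fractions on the deposited scale. It was 13.07, 12.58, 12.48 and 12.71 log2 in vehicle GFP+ cells and 12.86, 12.89, 12.52 and 12.63 in vehicle GFP- cells. It was 12.64, 12.73, 12.50 and 12.87 in octanol GFP+ cells and 12.80, 12.94, 12.74 and 12.84 in octanol GFP- cells. The difference was -0.02 (95% interval -0.26 to 0.23) after vehicle and -0.14 (-0.38 to 0.10) after octanol, and the fractions overlapped in both. It passed in opposite directions under the 2 centrings. Centred on the array median it was called higher in GFP+ cells after vehicle (0.32, adjusted p = 0.0264, limma) and was at 0.13 after octanol (not called). Centred on receptors it was called lower after octanol (-0.64, adjusted p = 0.00349, limma) and was at -0.32 after vehicle (not called). The second Ddit3 probe set also overlapped, with group means of 10.83 to 10.95 log2.

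Trib3, a pseudokinase gene switched on by ATF4 and CHOP, varied most from array to array. It was 11.11, 10.78, 10.75 and 11.54 log2 in vehicle GFP+ cells and 10.24, 10.71, 10.51 and 10.57 in vehicle GFP- cells. It was 10.54, 10.85, 10.89 and 11.05 in octanol GFP+ cells and 9.97, 10.76, 11.04 and 10.80 in octanol GFP- cells. The vehicle groups were apart and the octanol groups overlapped, and the 16 arrays spanned 1.57 log2, against 0.30 for Hspa5. The difference after vehicle was 0.54 ± 0.17 (SE), with adjusted p = 0.042 in limma. After octanol it was 0.19 ± 0.17, with adjusted p = 0.421 in limma. The difference between the exposures was itself tested and did not pass (-0.34, 95% interval -0.89 to 0.20, adjusted p = 0.998 in limma). Pools 1 and 4 held most of the vehicle difference, 0.87 and 0.97 against 0.06 and 0.24 in pools 2 and 3. The call was lost without vehicle pool 1 (0.43, adjusted p = 0.159), vehicle pool 3 (0.63, 0.0522), vehicle pool 4 (0.39, 0.173), octanol pool 2 (0.0557) or octanol pool 4 (0.0578). It was also lost with no block (adjusted p = 0.0779, limma) and with arrays centred on receptors (0.24, adjusted p = 0.341). After octanol Trib3 was called higher with arrays centred on their median (0.47, adjusted p = 0.0369, limma) and was at -0.305 (not called) centred on receptors.

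Hspa5, which encodes BiP, the main HSP70 chaperone of the ER and the classic readout of ER stress, was the steadiest of the 9 genes. It was 16.33, 16.36, 16.37 and 16.23 log2 in vehicle GFP+ cells and 16.32, 16.46, 16.28 and 16.20 in vehicle GFP- cells. It was 16.46, 16.33, 16.34 and 16.30 in octanol GFP+ cells and 16.34, 16.36, 16.29 and 16.17 in octanol GFP- cells. All 4 groups overlapped. The difference between fractions was 0.01 (95% interval -0.19 to 0.20) after vehicle and 0.07 (-0.13 to 0.26) after octanol. Its sign and its call followed the scaling. Centred on the array median, it was called higher in both exposures (0.34 in each, adjusted p = 0.00714 and 0.00839, limma). Centred on receptors, it was called lower after octanol (-0.43, adjusted p = 0.0105, limma) and was at -0.30 after vehicle (not called).

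Dnajb9, which encodes ERdj4, a J-domain partner of BiP that is a known target of spliced XBP1, was higher in the GFP+ fraction of 8 of 8 pools. It was 15.55, 15.81, 15.41 and 15.40 log2 in vehicle GFP+ cells and 15.13, 15.60, 15.07 and 15.09 in vehicle GFP- cells. It was 15.71, 15.73, 15.45 and 15.34 in octanol GFP+ cells and 15.36, 15.53, 15.06 and 15.04 in octanol GFP- cells. The fractions overlapped in both exposures, pool 2 was the highest in all 4 groups, and the difference within a pool stayed within 0.20 to 0.42. It was 0.32 ± 0.09 (SE) after vehicle and 0.31 ± 0.09 after octanol, with adjusted p = 0.0244 and 0.0258 in limma. Without the block these became 0.142 and 0.147, and with the pool as a random block 0.0772 and 0.0809. Centring on the array median kept both calls (0.655 and 0.585). Centring on receptors brought the difference to 0.02 after vehicle and turned it to -0.19 after octanol (neither called). The vehicle call was lost without vehicle pool 1, 3 or 4 (0.29, 0.31 and 0.32, adjusted p = 0.0913, 0.0677 and 0.075, limma). The octanol call was lost without octanol pool 1, 3 or 4 (0.30, 0.29 and 0.32, adjusted p = 0.0795, 0.0817 and 0.0772, limma).

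Dnajb9 and Xbp1 therefore changed unequally, and centring an array does not alter that comparison. Within a pool, the fraction difference of Dnajb9 exceeded that of Xbp1 by 0.43 to 1.19 log2, in 8 of 8 pools, with a mean of 0.84 (SD 0.23). This contrast was formed after the values were seen and is given without a test. Over all genes, 31.4% had the same sign in all 8 pools, and 3 of these 9 did (Atf4, Dnajb9 and Xbp1). The fractions did not overlap in 3 of 9 genes after vehicle (Atf4, Trib3 and Xbp1), against 27.7% of all genes, and in 1 of 9 after octanol (Atf4), against 28%.

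Sdf2l1, an ER protein that works with J-domain proteins on unfolded chains, was higher in the GFP+ fraction of 7 of 8 pools and passed in neither exposure on the deposited scale. It was 10.75, 10.57, 10.59 and 10.39 log2 in vehicle GFP+ cells and 10.18, 10.13, 10.12 and 10.42 in vehicle GFP- cells. It was 10.56, 10.36, 10.81 and 10.67 in octanol GFP+ cells and 10.52, 10.30, 10.11 and 10.43 in octanol GFP- cells. Vehicle pool 4 was the 1 pool in which GFP+ was not higher (-0.03). The difference was 0.36 ± 0.14 (SE) after vehicle and 0.26 ± 0.14 after octanol, with adjusted p = 0.082 and 0.196 in limma. Without vehicle pool 4 the first was 0.495 with adjusted p = 0.0444 in limma. It also passed with no block (adjusted p = 0.0458) or a random block (0.0299). Centred on the array median, Sdf2l1 was called higher in both exposures (0.70 and 0.53, adjusted p = 0.00237 and 0.01, limma). Centred on receptors, it was at 0.06 after vehicle and -0.24 after octanol (neither called).

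Creld2, an ER-resident protein gene that is induced by ER stress, was 9.99, 9.91, 9.80 and 9.56 log2 in vehicle GFP+ cells and 9.98, 9.84, 9.88 and 9.47 in vehicle GFP- cells. It was 9.88, 9.91, 9.53 and 10.12 in octanol GFP+ cells and 9.57, 9.88, 9.67 and 9.49 in octanol GFP- cells. The groups overlapped in both exposures, and octanol pool 4 had the largest difference (0.63). The fitted difference was 0.03 (95% interval -0.26 to 0.31) after vehicle and 0.21 (-0.07 to 0.49) after octanol. With arrays centred on their median Creld2 was called higher in both exposures (0.36 and 0.48, adjusted p = 0.0243 and 0.00809, limma), and centred on receptors it was at -0.27 and -0.29 (neither called).

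Herpud1, an ER membrane protein that organises the degradation of misfolded proteins, was 15.94, 15.55, 15.55 and 15.82 log2 in vehicle GFP+ cells and 15.67, 15.77, 15.58 and 15.65 in vehicle GFP- cells. It was 15.54, 15.52, 15.53 and 15.94 in octanol GFP+ cells and 15.46, 15.50, 15.60 and 15.80 in octanol GFP- cells. The fractions overlapped, and the difference was 0.05 (95% interval -0.19 to 0.29) after vehicle and 0.04 (-0.20 to 0.28) after octanol. With arrays centred on their median it was called higher in both exposures (0.385 and 0.31, adjusted p = 0.0106 and 0.0283, limma). Centred on receptors it was called lower after octanol (-0.46, adjusted p = 0.0157, limma) and was at -0.25 after vehicle (not called).

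**Figure D1:**
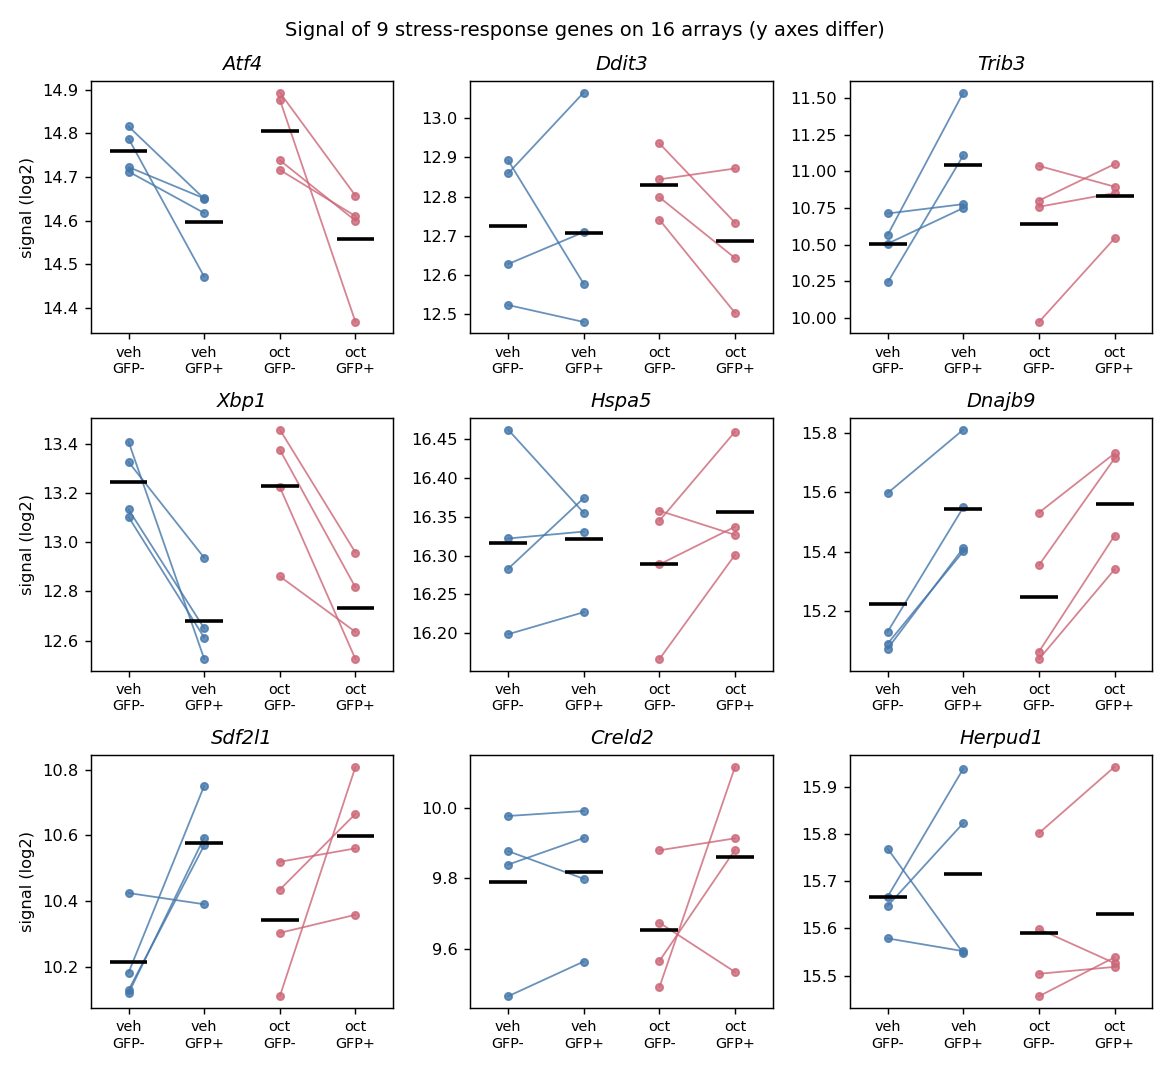
Log2 signal (y axis, a different range in each panel) of the 9 measured genes in the 4 groups of 4 arrays (x axis, veh for vehicle and oct for octanol). Each line joins the GFP- and GFP+ arrays taken to be 1 pool of 3 mice and black bars are group means: the lines of Xbp1 and Atf4 fall in 8 of 8 pools, those of Dnajb9 rise in 8 of 8, and Hspa5 spans 0.30 log2 in all.

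Averaging the fraction difference over both exposures, a comparison added after the data were seen, raised the number of genes past the threshold to 5 of 9. Of these, 3 were higher (Trib3, Dnajb9 and Sdf2l1) and 2 lower (Xbp1 and Atf4), against 29.4% and 16.7% of all genes, and 46.1% in either direction. Xbp1 was at -0.53 ± 0.08 (SE, n = 8 pools) with adjusted p = 6.0e-04, and Dnajb9 at 0.32 ± 0.06 with adjusted p = 0.00283, in limma. Trib3 (0.36), Sdf2l1 (0.31) and Atf4 (-0.20) had adjusted p of 0.033, 0.0288 and 0.0413 in limma. Xbp1 and Dnajb9 kept their calls without any 1 of the 8 pools, while Atf4 lost it without each of them in turn (adjusted p = 0.0505 to 0.101). Trib3 kept its call only without octanol pool 3 or vehicle pool 2 or 3 (otherwise adjusted p = 0.0518 to 0.0861), and Sdf2l1 only without octanol pool 1 or 2 or vehicle pool 4 (otherwise 0.055 to 0.0728). The signs of Trib3, Dnajb9 and Sdf2l1 turned with arrays centred on receptors, and that of Atf4 with arrays centred on their median.

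**Figure D2:**
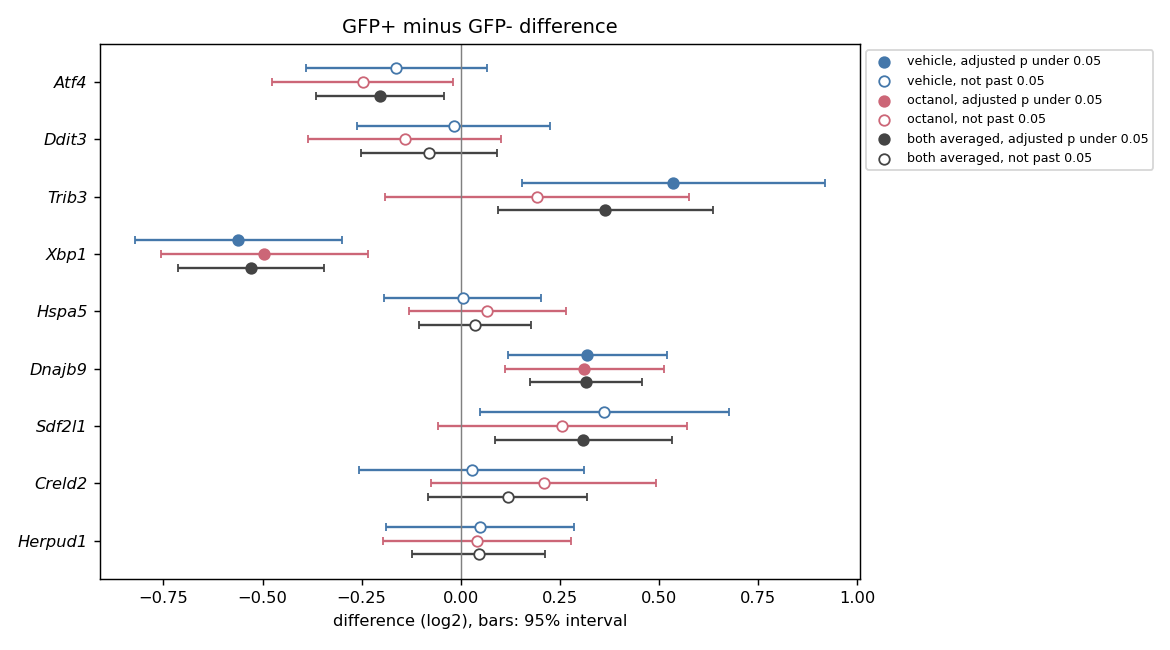
GFP+ minus GFP- difference in log2 units (x axis) of the 9 genes after vehicle, after octanol and averaged over both; bars are 95% intervals and filled points have an adjusted p under 0.05 in limma. Xbp1 lies at -0.56, -0.50 and -0.53 and Dnajb9 at 0.32, 0.31 and 0.32, while Hspa5, Herpud1, Ddit3 and Creld2 have intervals that include 0 in all 3.

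**Figure D3:**
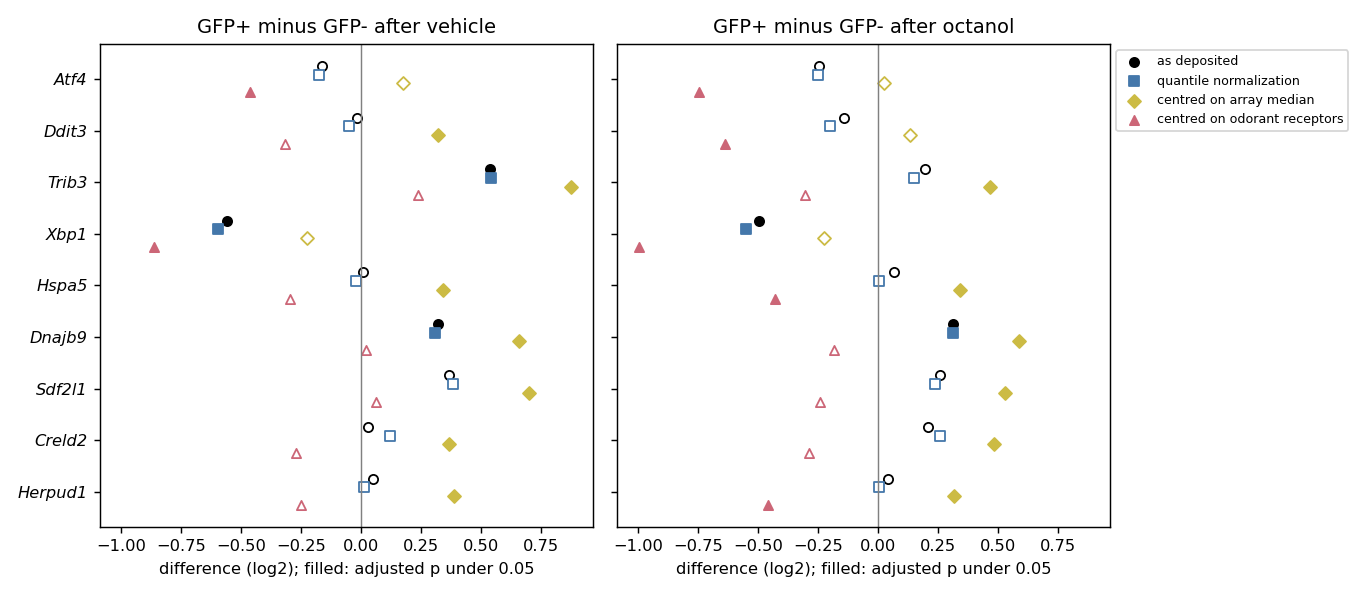
The same log2 difference after vehicle (left) and after octanol (right) under 4 scalings of the arrays; filled points have an adjusted p under 0.05. Each centring moves the 9 genes together, and Xbp1 is the 1 gene on the same side of 0 under all 4 after octanol, at -0.22 or below; after vehicle Xbp1, Trib3, Dnajb9 and Sdf2l1 are.

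Octanol did not detectably change any of the 9 genes in either fraction. In GFP+ cells the octanol minus vehicle differences ran from -0.21 (Trib3) to 0.05 (Xbp1), with the lowest adjusted p = 0.9996 in limma. In GFP- cells they ran from -0.14 (Creld2) to 0.14 (Trib3), with the lowest adjusted p = 0.9825. The effect of octanol on the GFP+ to GFP- difference ran from -0.34 (Trib3) to 0.18 (Creld2), with the lowest adjusted p = 0.9985. In each of these 3 comparisons 0% of all genes passed in limma. An unadjusted p under 0.05 was found for 0 of 9 genes, and for 727, 894 and 886 of all 19505 genes. At such small shares 0 of 9 does not set these genes apart from the rest.

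The exposure groups overlapped in 9 of 9 genes in GFP+ cells, where 2.21% of all genes did not overlap, and in 9 of 9 in GFP- cells, where 2.57% did not. The 95% intervals, not adjusted for the number of genes, give the range of octanol effects that these values leave possible on the deposited scale. For Hspa5 the 95% interval of the octanol effect was -0.19 to 0.26 in GFP+ cells and -0.28 to 0.23 in GFP- cells, so its far end was 1.19-fold and 1.21-fold. For Ddit3 it was -0.35 to 0.31 and -0.17 to 0.38, for Atf4 -0.28 to 0.21 and -0.19 to 0.29, and for Xbp1 -0.25 to 0.36 and -0.35 to 0.32. Trib3 had the widest intervals, and their far ends were 1.55-fold in GFP+ and 1.53-fold in GFP- cells. These far ends are not limits of detection. On simulated data the adjusted test recovered 72 of 100 genes changed by 1 log2 in GFP+ and 72 of 100 in GFP- cells. There 100 of 19505 genes were changed by 1 log2 and 100 by 2 log2, and recovery depends on how many genes differ. Changes in few cells of a fraction may also have been missed. Scaling moved the octanol values too. With arrays centred on receptors, the median octanol difference of all genes went from -0.016 to 0.138 in GFP- cells. In GFP+ cells it went from 0.006 to -0.037. Hspa5 in GFP- cells then moved from -0.027 to 0.127 (SE 0.136, not called).

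**Figure D4:**
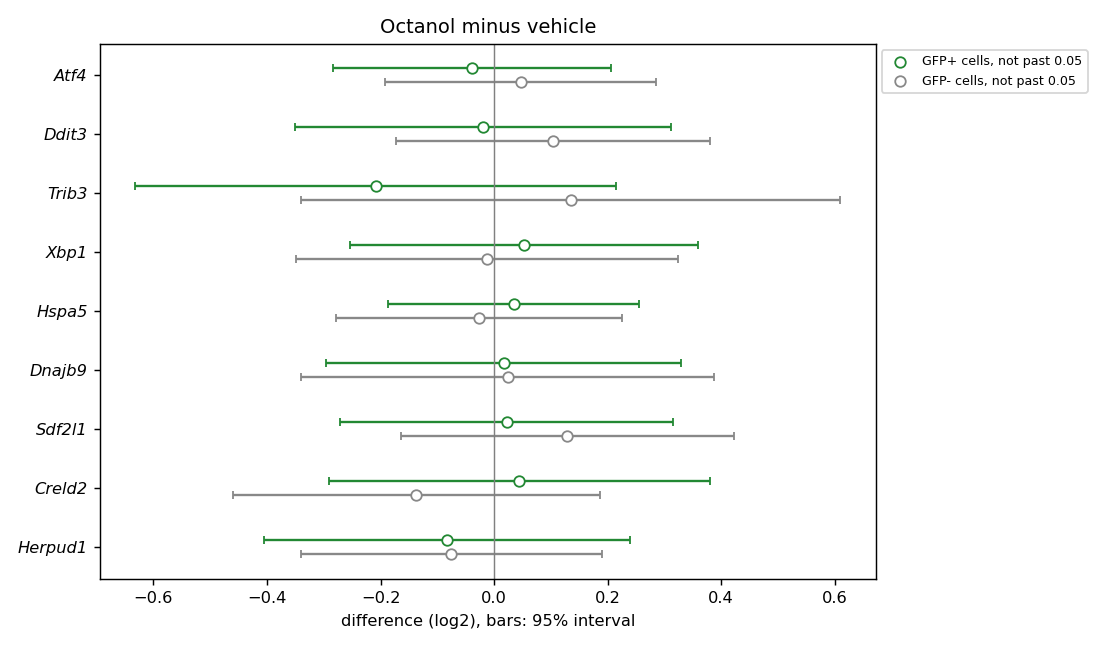
Octanol minus vehicle difference in log2 units (x axis) of the 9 genes in GFP+ and in GFP- cells, with 95% intervals, from 4 arrays against 4 on the deposited scale. All 18 intervals include 0, and the widest are those of Trib3 (-0.63 to 0.22 and -0.34 to 0.61).

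The other genes of the pathway were read from lists, and single genes of these lists differed by more than any of the 9 measured genes did. The counts below are on the deposited scale, where 28.2% of all genes passed after vehicle and 29.9% after octanol. Of the stress sensors and transducers, 10 were measured, and GFP+ cells had 0 higher and 2 lower after vehicle and 1 of each after octanol (20.0% in each, below the share of all genes). Eif2ak2 (PKR, the eIF2alpha kinase that senses double-stranded RNA) was at -0.67 and -0.54, and lost both calls under quantile normalization. Eif2ak1 (the heme-regulated eIF2alpha kinase) was at -0.30 after vehicle and turned positive with arrays centred on their median. Ern2 was called higher after octanol (0.46) but was under background on 8 of 8 octanol arrays. Eif2ak3, Ern1 and Atf6, the sensors described above, were named for their role and outside the naming rule, and did not pass on the deposited scale. Eif2ak3 (PERK) was at -0.05 and -0.05, Ern1 (IRE1) at -0.12 and -0.33 (adjusted p = 0.506 and 0.0747, limma), and Atf6 at 0.22 and 0.32 (adjusted p = 0.230 and 0.0832).

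Of 24 measured ER chaperones and folding enzymes, 3 were higher and 0 lower after vehicle, and 5 higher and 1 lower after octanol. These are 12.5% and 25% of the list, below the 28.2% and 29.9% of all genes. Cdnf, a secreted ER-stress protein of the neurotrophic factor type, was at 0.63 ± 0.13 (SE) after vehicle and 0.91 ± 0.13 after octanol, with adjusted p = 0.00490 and 4.93e-04 in limma. Dnajb11, another J-domain partner of BiP, was at 0.36 after vehicle, and Creld1, a relative of Creld2, also at 0.36. After octanol Fkbp14 (a prolyl isomerase) was at 0.52, Txndc11 (a thioredoxin-domain protein) at 0.50 and P4hb (protein disulfide isomerase) at -0.44. Centring on receptors ended the calls of Dnajb11, Creld1, Fkbp14 and Txndc11 and the vehicle call of Cdnf, and centring on the array median ended that of P4hb.

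In the degradation branch 17 genes were measured, with 2 higher and 2 lower after vehicle and 3 higher and 1 lower after octanol. This is 23.5% of the list in each exposure, below the 28.2% and 29.9% of all genes. Edem1, which pulls misfolded glycoproteins out of folding and is a known XBP1 target, was lower in GFP+ cells of 8 of 8 pools, by 2.23-fold after vehicle (-1.16 ± 0.15, adjusted p = 3.06e-04, limma) and 2.05-fold after octanol (-1.03 ± 0.15, adjusted p = 6.62e-04). These calls held under all 3 other scalings. Selenos, a selenoprotein of the retrotranslocation complex, was at 0.42 and 0.45 and Erlec1, an ER lectin, at 0.34 and 0.38, higher in 8 of 8 pools. Both lost the vehicle call and turned negative after octanol with arrays centred on receptors. Vcp, the ATPase that extracts proteins from the ER, was at 0.28 after octanol and also turned negative there. Derl3 was at -0.46 after vehicle but under background on 8 of 8 vehicle arrays.

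Among 20 genes of the translocon and ER export, 2 were higher and 3 lower after vehicle, and 3 higher and 1 lower after octanol, 25% and 20.0% of the list against 28.2% and 29.9% of all genes. Sec11c, a catalytic subunit of the signal peptidase, was at -0.71 and -0.61, and Sec24d, a cargo adaptor of COPII vesicles, at 0.49 and 0.81. The vehicle call of Sec24d was lost with arrays centred on receptors, and the calls of Sec11c held under the 3 other scalings. Ostc (-0.46) and Sec11a (-0.39) lost their vehicle calls with arrays centred on their median, and Sec63 (0.32) and Sec23b (0.30) turned negative after octanol with arrays centred on receptors and lost their calls under quantile normalization.

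Of 28 measured targets of ATF4 and CHOP, GFP+ cells had 1 higher and 7 lower after vehicle, and 5 higher and 6 lower after octanol. These are 28.6% and 39.3% of the list, against 28.2% and 29.9% of all genes. The median of this list was -0.12 after vehicle and -0.13 after octanol, where the median of all genes was 0.13 and 0.14. Nupr1, a stress-induced chromatin protein gene, was 3.30-fold lower after vehicle (-1.72 ± 0.14, adjusted p = 9.0e-06, limma) and 2.50-fold lower after octanol (-1.32 ± 0.14, adjusted p = 5.97e-05). Psat1, an enzyme of serine synthesis, was at -1.12 and -0.91, and Eif4ebp1, which restrains cap-dependent translation, at -0.98 and -1.11. Ddit4, an inhibitor of mTOR signalling, was at -0.76 after vehicle, and Slc7a11, the cystine transporter, at -0.83 after octanol. The sign and call of these 5 genes held under the 3 other scalings. The genes called higher, named after their values were seen, were Pck2, a mitochondrial PEP carboxykinase, at 0.45 after vehicle and 0.35 after octanol, and after octanol also Tnfrsf10b, a death receptor (0.58), Ppp1r15a (0.45), Vldlr, a lipoprotein receptor (0.38), and Atf5 (0.28). Centring on receptors ended each of these calls, and there Pck2, Ppp1r15a, Vldlr and Atf5 were negative after octanol. Of the genes above that ATF4 also switches on, Trib3 was called higher after vehicle and Ddit3 did not pass on the deposited scale.

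The aminoacyl-tRNA synthetases, also ATF4 targets, had 0 of 11 past the threshold after vehicle, and 2 higher after octanol (18.2%). These were Iars (0.43) and Lars (0.36), both negative with arrays centred on receptors. Of 8 genes that act on eIF2 or on cap-dependent translation, 1 was higher and 1 lower in each exposure (25%). The lower gene was Eif4ebp1. Like Ppp1r15a, it is also on the list of ATF4 and CHOP targets and is counted in both. Eif2b4, a subunit of the eIF2 exchange factor, was at 0.52 after vehicle and lost its call with arrays centred on receptors. Ppp1r15a (GADD34), which directs the phosphatase that reverses eIF2alpha phosphorylation, was at 0.45 after octanol and turned negative under that scaling.

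The list for the feedback by which receptors silence one another had 3 of 10 genes higher and 0 lower after vehicle, and 4 higher and 0 lower after octanol. These are 30.0% and 40.0% of the list, against 28.2% and 29.9% of all genes in either direction and 14.7% and 16.7% higher. Reep1 was at 0.54 and 0.38, Rtp2 at 0.40 and 0.39, and Adcy3 at 0.30 and 0.32, the first 2 known as receptor-trafficking proteins and the last as the olfactory adenylyl cyclase. Atf5, the transcription factor translated through PERK, was at 0.19 after vehicle (adjusted p = 0.161) and 0.28 after octanol (adjusted p = 0.0499, limma). Rtp2 and Adcy3 are also on the list of mature neuron markers, and Atf5 on that of ATF4 and CHOP targets. Their calls are counted in both lists. Centring on receptors ended all 3 vehicle calls and turned all 4 octanol values negative, and quantile normalization ended the calls of Adcy3 and Atf5. Among 9 genes of the cytosolic heat shock response, 2 were higher and 1 lower after vehicle, and 1 higher and 2 lower after octanol (33.3% in each). Hspa1a, the inducible HSP70, was at -1.20 and -1.64, Hspa1b at -1.60 after octanol, Bag3 at 0.56 after vehicle and Hsph1 at 0.32 in both. Hspa1a varied widely between pools (-3.42 to -0.15). It lost its vehicle call under quantile normalization and with arrays centred on their median. Bag3 and Hsph1 lost theirs with arrays centred on receptors, where Hsph1 turned negative after octanol.

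**Figure D5:**
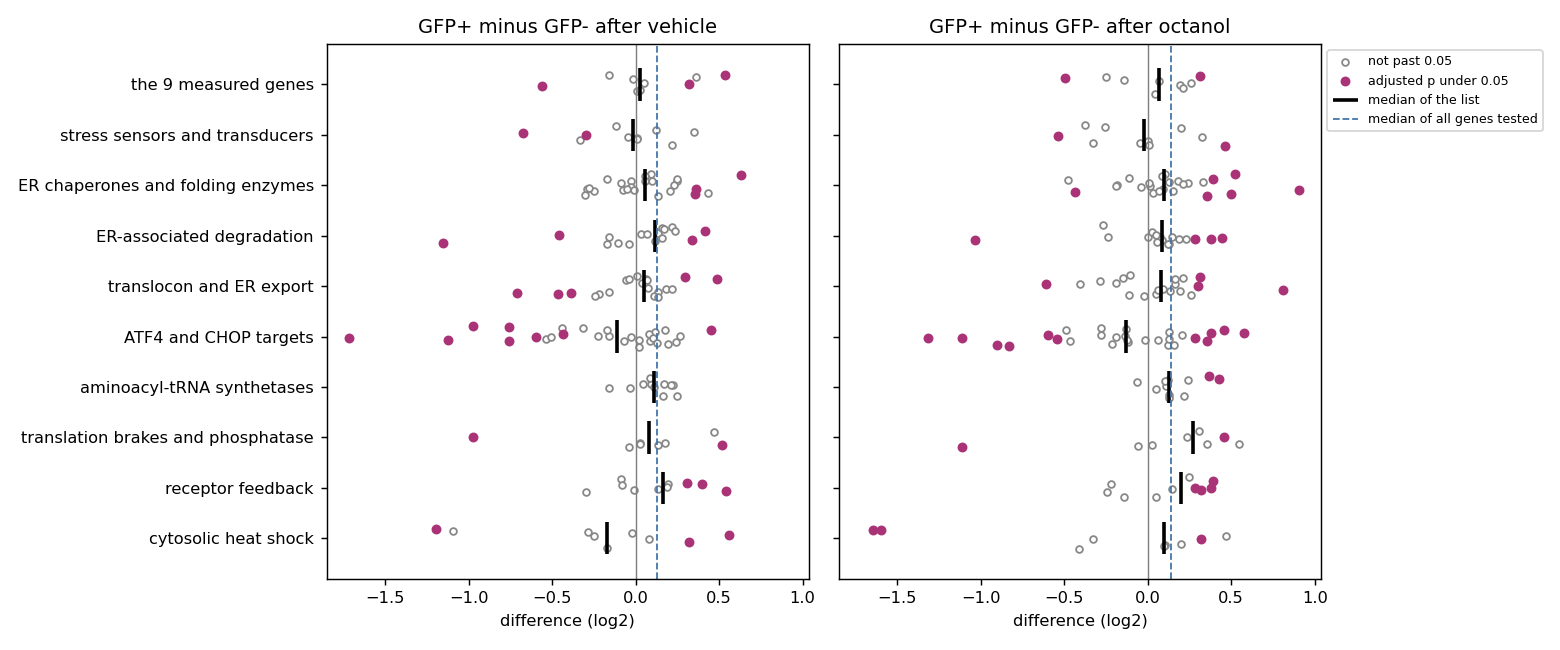
GFP+ minus GFP- difference in log2 units (x axis) of each measured gene in 10 lists (y axis), after vehicle (left) and after octanol (right); filled points have an adjusted p under 0.05 in limma, black bars are list medians and the dashed line is the median of all genes tested (0.13 and 0.14). The 9 genes have medians of 0.03 and 0.07, and the list of ATF4 and CHOP targets has medians of -0.12 and -0.13.

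Markers of other cells, and immediate early genes, differed between the fractions beside these genes. On the scale of summed signal (log2), neutrophil markers were 9.87 to 11.42 in vehicle GFP+ and 18.50 to 19.21 in vehicle GFP- arrays, and lower in GFP+ for 6 of 6 genes in both exposures. After octanol they were 11.19 to 14.17 and 18.83 to 19.50. Monocyte and macrophage markers were lower for 8 of 8 genes in both exposures, with sums of 10.52 to 11.31 and 16.48 to 17.20 after vehicle and 10.68 to 12.46 and 16.44 to 17.38 after octanol. Plasma cells, which are known for high Xbp1, had sums of 7.97 to 8.40 in GFP+ and 10.37 to 11.45 in GFP- arrays after vehicle, and 8.16 to 8.65 and 9.62 to 11.24 after octanol. Of their markers 4 of 7 were lower after vehicle and 2 of 7 after octanol. Prdm1, Mzb1, Tnfrsf17 and Derl3 were under background on every array, and the vehicle count includes Derl3. Jchain was at -5.03 and -4.48, but its mean signal in GFP+ cells was under background, so the size of that difference is uncertain. Bowman gland markers, from secretory cells, were lower for 5 of 7 genes in both exposures, with sums of 12.31 to 13.81 and 13.68 to 14.61 after vehicle and 12.71 to 16.73 and 13.62 to 17.74 after octanol.

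Sustentacular cell markers were lower for 3 of 7 genes in both exposures, with sums of 15.40 to 16.25 in GFP+ and 16.63 to 16.92 in GFP- arrays after vehicle, and 15.56 to 17.01 and 16.40 to 17.16 after octanol. Immature neuron markers were lower for 8 of 10 genes in both (1 was higher after octanol), with sums of 17.19 to 17.51 and 17.59 to 17.98 after vehicle and 17.18 to 17.47 and 17.44 to 17.84 after octanol. Mature neuron markers were higher for 5 of 12 genes after vehicle and 6 of 12 after octanol, and their sums were 20.72 to 20.81 and 20.54 to 20.68, and 20.76 to 20.86 and 20.55 to 20.61. Immediate early genes, which dissociation is known to induce, were lower for 9 and 10 of 14, with Fos at -5.05 and -5.07. The part of these cells and responses in the differences of Xbp1, Trib3, Dnajb9 or the listed genes was not tested. In such bulk samples fewer cells of a type and less RNA per cell cannot be told apart.

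The genes whose pattern over the 16 arrays was most like that of each gene were named by Pearson's r, as a description. The arrays share fractions and pools, so these values are not independent of the sort. For Xbp1 they were Il1rl2 (0.938), Csk (0.932) and Ninj1 (0.930). For Dnajb9 they were 1700001L19Rik (0.946), Selenos (0.927), which is on the degradation list, and Sar1b (0.925), a GTPase of COPII vesicles. For Hspa5 they were Med31 (0.905), Eif2s3x (0.893), a subunit of eIF2, and Hsp90aa1 (0.884), a cytosolic chaperone. For Creld2 they were Mrs2 (0.863), Mars1 (0.831), the methionyl-tRNA synthetase, and Mthfsd (0.822). For Atf4 they were Olfr1040 (0.902), Cachd1 (0.888) and Krt7 (0.883), and for Trib3 Tti2 (0.919), Cnppd1 (0.894) and Phf24 (0.890). For Ddit3 Macir stood at 0.891 and the next, Dand5 and Tmem258, at 0.746 and 0.741. For Herpud1 they were Klhdc3 (0.887), Olfr796 (0.879) and G6bos (0.802), and for Sdf2l1 Tmeff2 (0.894), Gabrr2 (0.875) and Cacna1c (0.865). No 2 of the 9 genes were among each other's closest 3.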

How the data were processed

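RNA was measured on 16 Clariom S arrays. The authors deposited log2 signals made with Affymetrix Expression Console, per the submitters' processing notes. The program's version and normalization are not given in the sources read, and the values were used unchanged. Array number and not read depth limits the precision. Of 28846 probe sets, 19572 carry 1 gene symbol, and the highest-mean probe set per gene (67 left out) gave 19505 genes. For background, the mean signals of 319 vomeronasal receptor genes were ranked and their 95th percentile taken.

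Groups were compared with limma 3.58.1 (lmFit, eBayes, 2-sided moderated test) in R 4.3.3. Fraction comparisons fitted 16 arrays with a fixed term for each pool, leaving 6 residual degrees of freedom, and octanol was compared with vehicle on 8 arrays per fraction. P-values were adjusted (Benjamini-Hochberg) over all genes. That fractions with 1 number share mice is inferred from 24 mice in 8 pools. Residuals of such pairs correlated at 0.0779 to 0.222 (mean 0.160, 8 pairs, against -0.0463 for 72 other pairs). Arrays of different mice with 1 number in 1 fraction did so too (means 0.153 and 0.209), so the pairing rests on the mouse numbers.

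The members and gene lists were chosen with earlier results of these data known. The genes named are all members, up to 4 genes per pathway list and 3 per cell type list past the threshold with the largest difference, and the 3 genes most correlated with each member. On simulated data the fits recovered 79 of 100 genes changed by 1 log2 and 97 of 100 changed by 2 in the vehicle fraction comparison, and 72 and 94 for octanol in GFP+ cells. Only these genes of 19505 were changed, while 28.2% of all genes were called after vehicle in the real data. The adjusted threshold depends on that share, and a pool effect was added to the residual spread. These recoveries therefore do not measure that of the fraction tests reported here. Alternatives were other scalings, filters, variance models and blocks, and leaving out each pool.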

Additional observations from a re-analysis of the deposited data

Results flagged for a closer look

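In 40 sets of 4 arrays the highest or lowest value was set against the others, and about 1 in 20 stands apart by chance. Herpud1 in octanol GFP+ pool 4 was 15.94 log2, while the nearest array of that group was at 15.54. Dnajb9 in vehicle GFP- pool 2 was 15.60 log2, while the nearest was at 15.13, and the GFP+ array of that pool was also the highest of its group (15.81).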

How the results depend on the processing

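With arrays centred on their median the number of genes past the threshold went from 5502 to 14745 after vehicle, from 5826 to 13429 after octanol and from 8996 to 16835 averaged, and the stress genes called from 3 to 7, 2 to 6 and 5 to 8. Centred on odorant receptors, 9276 genes and 5 of the stress genes passed after octanol. With no replicate block 4991 and 5280 genes passed after vehicle and octanol, and 1 of the 9 after octanol. With the replicate number as a block, octanol gave 0 calls in limma in either fraction, as it did without (unadjusted p under 0.05 in 806 and 1277 genes). With a trended, robust variance 1 gene, Olfr95, passed for the octanol effect on the fraction difference (1.56, adjusted p = 0.0358, limma), and was named after its value was seen. Leaving out 1 pool gave 1 to 3 called stress genes after vehicle, 0 to 2 after octanol and 2 to 3 averaged. Of all 19505 genes, 4024 to 5490, 3969 to 5648 and 7777 to 8294 then passed, fewer than with all pools in each case.

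Centred on the array median, the difference turned to 0.32 for Ddit3 and 0.035 for Eif2ak1 after vehicle, and averaged to 0.10 for Atf4 and 0.22 for Ddit3. Centred on receptors it turned after octanol to -0.43 for Hspa5, -0.46 for Herpud1, -0.19 for Dnajb9, -0.036 for Ern2, -0.052 for Selenos, -0.12 for Erlec1, -0.22 for Vcp, -0.18 for Sec63, -0.20 for Sec23b, -0.071 for Iars, -0.13 for Lars, -0.043 for Ppp1r15a, -0.11 for Rtp2, -0.12 for Reep1, -0.18 for Adcy3, -0.21 for Atf5 and -0.18 for Hsph1. Averaged it turned to -0.36 for Hspa5, -0.035 for Trib3, -0.35 for Herpud1, -0.084 for Dnajb9, -0.09 for Sdf2l1 and -0.28 for Creld2. These turns follow from the shift that each centring gives to all genes. A further 27 differences of the 9 genes changed sign with no call on either side, and 37 when 1 pool was left out. Precision is limited by 4 pools per exposure, and the alternatives do not say which scaling is right.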
